A study of Rattus norvegicus with 18 samples.

Results

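The 46 genes described here encode core splicing factors and heterogeneous nuclear ribonucleoproteins (hnRNPs). They were taken by a rule on names, which was set with earlier results of these data known. The rule took every symbol of the table that begins with Snrp, Srsf and a digit, Sf3a or Sf3b and a digit, or Hnrnp. They make up 46 of the 13188 genes measured. By role they comprised 6 proteins of the Sm ring (Snrpb, Snrpd1, Snrpd2, Snrpe, Snrpf and Snrpg), 4 proteins specific to the U1 or U2 small nuclear ribonucleoprotein (Snrpa, Snrpc, Snrpa1 and Snrpb2), 9 subunits of the SF3A and SF3B complexes, 10 serine/arginine-rich (SR) proteins and 17 hnRNPs. The name rule does not take spliceosomal proteins with other symbols, such as Snrnp70, and these were counted separately as a list of other spliceosome proteins. None of the 13188 genes carried the symbol Snrpd3, Snrpn, Srsf12 or Hnrnpc, so these were not analysed here.

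Introns are removed by the spliceosome, which is assembled from small nuclear RNAs and their proteins. The Sm proteins form a ring around the small nuclear RNAs and are shared by the U1, U2, U4 and U5 particles, whereas SF3A and SF3B belong to the U2 particle and help it to hold the branch site of the intron. SR proteins bind mostly to exons and favour the use of nearby splice sites, and hnRNPs coat the nascent transcript and often act against them. MYC is a transcription factor that raises the output of growth genes, among them genes for RNA processing, and the aryl hydrocarbon receptor (AHR) is a ligand-activated transcription factor.

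RNA-seq was performed on 18 libraries in 6 groups of 3. All cells were HO15.19, the Rat1 fibroblast line in which both rat myc alleles are inactivated (myc-/-), called Sed when they lacked MYC and SedMYC when human MYC had been introduced by viral infection under the promoter of the vector, so MYC was not under its own control. The study's methods describe the cells without MYC as carrying the vector. The groups were Sed without transfection, Sed with control siRNA (siCtrl), SedMYC without transfection, and SedMYC with siCtrl or with either of the AHR siRNAs, siAHR-2 and siAHR-5. Transfected cells received 40 nM siRNA and were harvested after 48 h, and all cells grew in DMEM with 10% FBS. The study asked which genes respond to MYC and which of them need AHR. The labels number the replicates of a group but do not say that they came from separate cultures, so the p-values measure the spread between these libraries, which may be technical.

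The deposited values are log2 normalized values. Sed siCtrl and SedMYC lay on one scale (the small set, 6 libraries) and the other groups on another (the large set, 12 libraries), and all 46 members had a higher mean in the large set than in the matching group of the small set, by a median of 0.94 between the Sed groups and 1.00 between the SedMYC groups. Levels were therefore compared only within a set, where the transfection label changed together with MYC and the part of each cannot be told apart. As labelled, each scale joins a transfected group of one kind with an untransfected group of the other, so the transfection labels of the Sed groups may have been exchanged, which was not tested. The groups are named here as labelled, and an exchange would leave MYC as the one labelled difference within each MYC comparison. Ahr, the target of the siRNAs, ranged from 13.22 to 13.34 in SedMYC siCtrl, from 11.97 to 12.03 with siAHR-2 and from 11.76 to 11.95 with siAHR-5, and the groups did not overlap. The row for rat Myc was lower in the SedMYC than in the Sed group of both sets. Whether it takes up reads of the introduced human gene was not tested. The fibroblast marker list (9 of 9 genes measured) had summed log2 levels of 20.80 to 20.82 in Sed siCtrl against 19.87 to 19.95 in SedMYC, and of 21.95 to 22.18 in Sed against 20.21 to 20.24 in SedMYC siCtrl, and no marker list of the other cell types examined (epithelial, endothelial, leukocyte, skeletal muscle) exceeded 10.83 in any library, with no marker listed at 0. The skeletal muscle list (3 genes, 3 of them lower in each set at an adjusted p below 0.05) went from between 10.63 and 10.75 to between 9.25 and 9.46 with MYC in the small set, and from between 10.59 and 10.83 to between 9.2 and 9.39 in the large set. The leukocyte list (5 genes, 3 lower in each set, 1 and 0 higher) went from between 9.69 and 9.80 to between 8.52 and 8.64, and from between 8.73 and 8.83 to between 8.23 and 8.39. The sum of the epithelial list (5 genes) went from between 8.69 and 8.70 to between 8.85 and 9.0 and from between 7.89 and 8.03 to between 8.83 and 9.16, with 1 gene (Krt8) higher and 2 lower in the small set and 1 and 0 in the large set. That of the endothelial list (5 genes) went from between 8.28 and 8.38 to between 8.56 and 8.64 and from between 9.34 and 9.48 to between 9.55 and 9.67, with 2 higher and 3 lower in the small set and 1 and 0 in the large set. The summed level of the fibroblast list was 19.98 to 20.02 with siAHR-2 and 19.94 to 19.96 with siAHR-5. Of the 9 fibroblast genes, 5 were lower and 3 higher with MYC in the small set at an adjusted p below 0.05, and 7 were lower and 0 higher in the large set. The part of these shifts in the results on the members was not tested.

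The members were measured well above the lowest values of the table with 1 exception. Of the 46 members, 45 ranged between 10.3 and 17.84 over all libraries. Hnrnpab, a relative of Hnrnpd, lay between 3.19 and 3.45 in every library, and its values say little about expression. The median SD between replicates was 0.0391 for the members and 0.0442 for all genes, and the largest SD of a member was 0.141. Depth is unknown, because the values cannot be turned back into reads.

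With MYC, 5 of the 6 Sm ring proteins were higher and 1 lower in the small set at an adjusted p below 0.05. In the large set 4 were higher and 1 lower. Of the 10 SR proteins, 7 were higher and 0 lower in the small set, and 9 and 1 in the large set. The shares of all genes were 37.3% higher and 39.0% lower in the small set, and 31.6% and 33.1% in the large set. In the small set (SedMYC against Sed siCtrl), 3 members were higher and 0 lower past the cutoffs of the study (a log2 fold change of at least 1.5 fold in size and an adjusted p of at most 0.01), a share to be read against the 26.8% of all genes past them (12.5% higher and 14.3% lower). In the large set (SedMYC siCtrl against Sed), 4 members were higher and 0 lower, against a background of 25.5% (10.8% higher and 14.7% lower). The 3 were Snrpf, Snrpg and Hnrnpa1, and the 4 were Hnrnph3, Hnrnph1, Snrpf and Srsf7. In the small set the count past the cutoffs was 10 higher and 0 lower with quantile normalization (1799 and 1684 of all 13188 genes). It was 3 and 1 with median centring (1492 and 2046 of all genes). Without SedMYC replicate 1 it was 5 and 0 (1630 and 1895 of all genes), and Srsf6 and Srsf7 joined. At an adjusted p below 0.05 without a fold cutoff, 21 members were higher and 12 lower in the small set (background 37.3% and 39.0%), and 26 were higher and 9 lower in the large set (31.6% and 33.1%). With quantile normalization these splits became 31 higher and 7 lower in the small set, and 32 and 2 in the large set. Here and below, background shares at this test belong to the values as deposited unless said otherwise. That scaling moved all genes too, and past the cutoffs 1796 were higher and 1660 lower in the large set, from 1425 and 1936. The median log2 fold change of the members was 0.06 in the small set and 0.20 in the large set, and that of all genes was -0.0038 and -0.0001. In bulk RNA, a shift in the kinds of cells in a culture and a change in RNA per cell cannot be told apart.

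**Figure D1:**
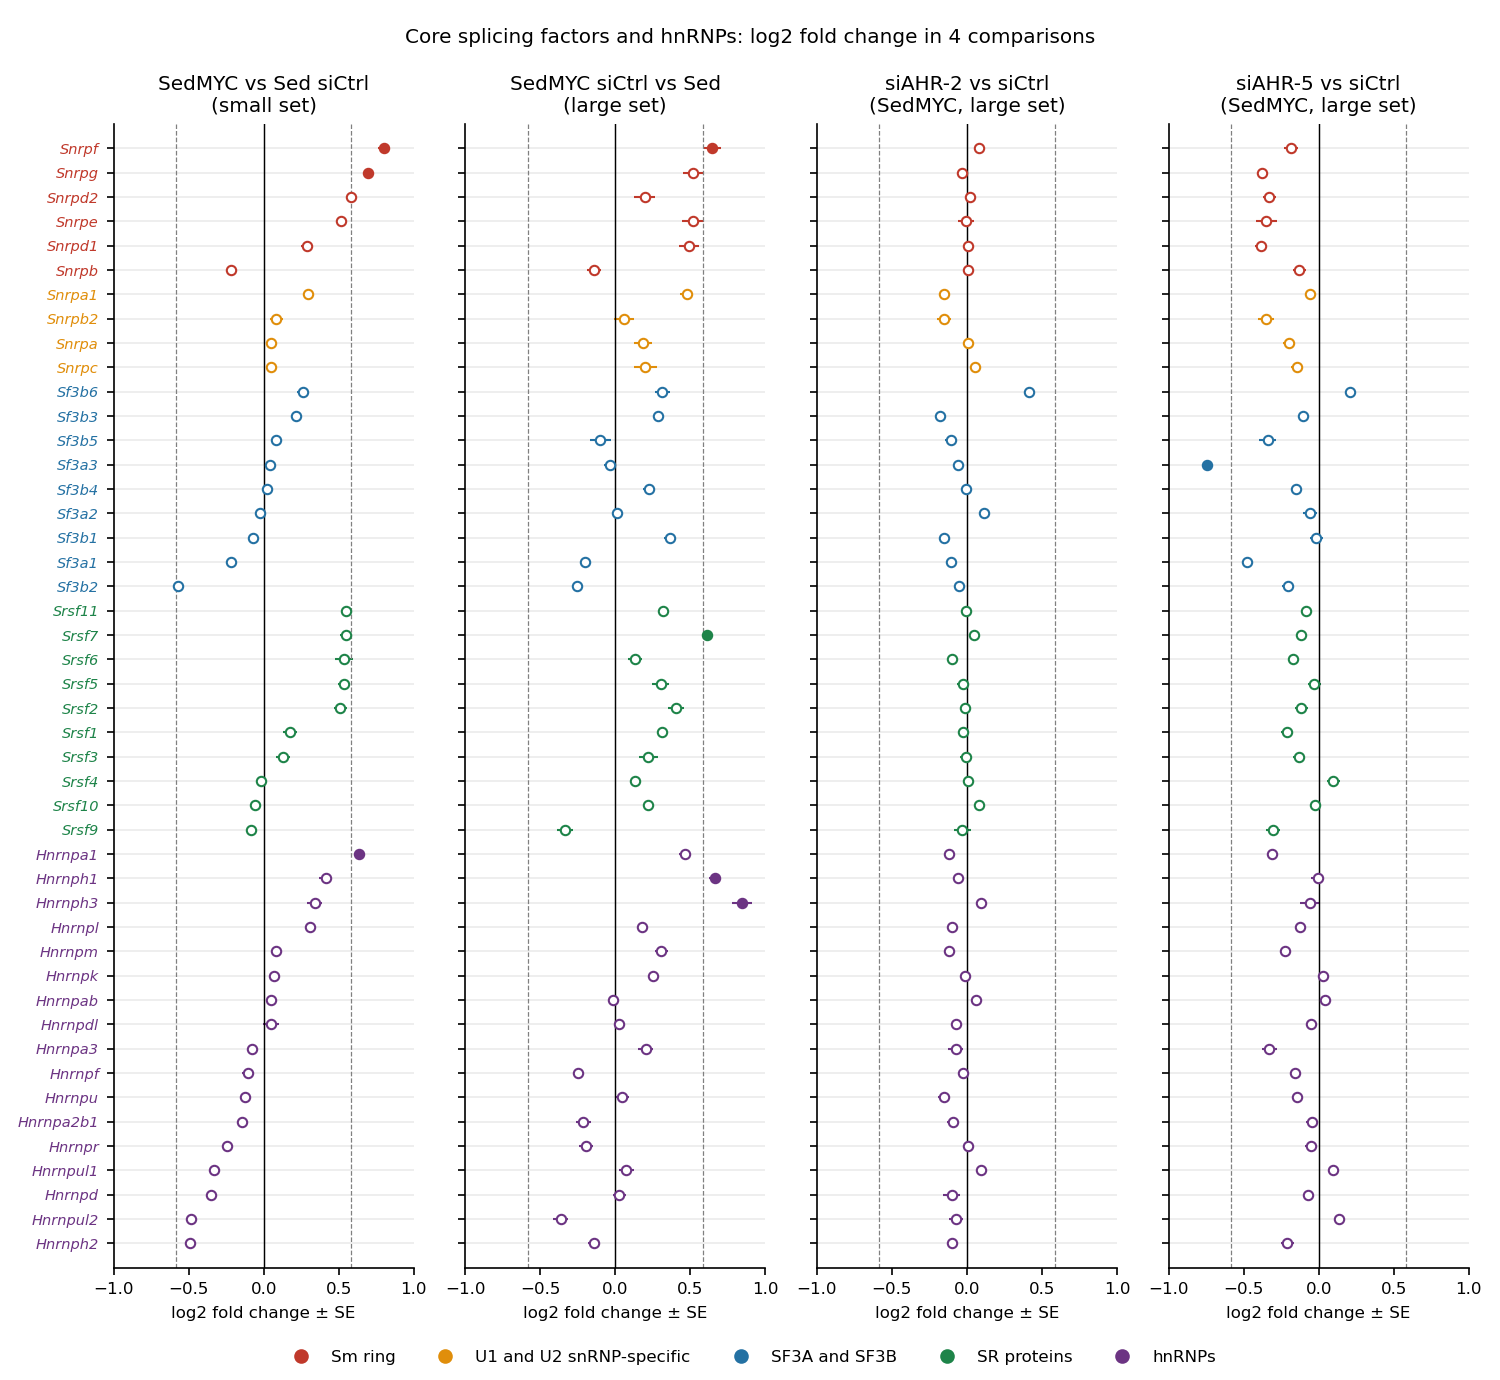
Log2 fold change with its standard error (horizontal axis) for each of the 46 members (rows, coloured by role) in 4 comparisons, each of 3 libraries against 3. Filled points passed both cutoffs and dashed lines mark the fold cutoff. Snrpf is the one member filled in both MYC panels, no point is filled for siAHR-2, and Sf3a3 is the one filled for siAHR-5.

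Snrpf of the Sm ring was the one member of all 46 past the cutoffs in both sets with the values as deposited and with median centring, and with quantile normalization Hnrnpa1, Hnrnph1 and Srsf7 joined it. Taken set by set, 12.5% of all genes were higher past the cutoffs in the small set and 10.8% in the large set. The share of all genes past them in both sets was not counted, so this count is a description only. Snrpf, which encodes the F protein of the ring, was at 12.12, 12.18 and 12.18 in Sed siCtrl and at 12.95, 12.92 and 13.00 in SedMYC. In the large set it was at 13.15, 13.32 and 13.15 in Sed and at 13.87, 13.88 and 13.81 in SedMYC siCtrl. The groups did not overlap in either set. The log2 fold changes of Snrpf were 0.80 (SE 0.0353, adjusted p = 2.53e-09) in the small set and 0.65 (SE 0.0557, adjusted p = 0.000133) in the large set, or 1.74-fold and 1.565-fold read off the log scale. Snrpg, which encodes the G protein that pairs with F and E in the ring, was at 12.16, 12.24 and 12.17 in Sed siCtrl and at 12.87, 12.91 and 12.87 in SedMYC, a log2 fold change of 0.69 (SE 0.0345, adjusted p = 7.08e-09). In the large set Snrpg was at 12.80, 13.05 and 12.93 in Sed and at 13.40, 13.46 and 13.47 in SedMYC siCtrl, which did not overlap, and its change of 0.52 (SE 0.0676, adjusted p = 0.000835) was below the fold cutoff. Snrpd1, the D1 protein, rose by 0.29 and 0.49.

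The rest of the ring is given here for completeness, after its values had been seen. Snrpe, the E protein, rose by 0.52 in each set. Snrpd2 rose by 0.58 (SE 0.0287, adjusted p = 6.67e-09) in the small set, just short of the fold cutoff, and had a log2 fold change of 0.19 (SE 0.0711, adjusted p = 0.0538) in the large set, where it passed the test with quantile normalization (0.29, adjusted p = 0.00873) and with median centring (0.24, adjusted p = 0.0117). The 2 effects on Snrpd2 differed by -0.39 (SE 0.075, adjusted p = 0.000502) (large set minus small set). Snrpb was the ring protein that went the other way, with -0.21 (SE 0.0308, adjusted p = 6.05e-05) and -0.14 (SE 0.0457, adjusted p = 0.0346), but with quantile normalization it turned to 0.021 and 0.056, and with median centring it did not pass in the large set (-0.10, adjusted p = 0.104). The median over the 6 ring proteins was 0.55 in the small set and 0.50 in the large set, the highest of the 5 roles, and it stayed above 0 under every scaling tried.

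**Figure D2:**
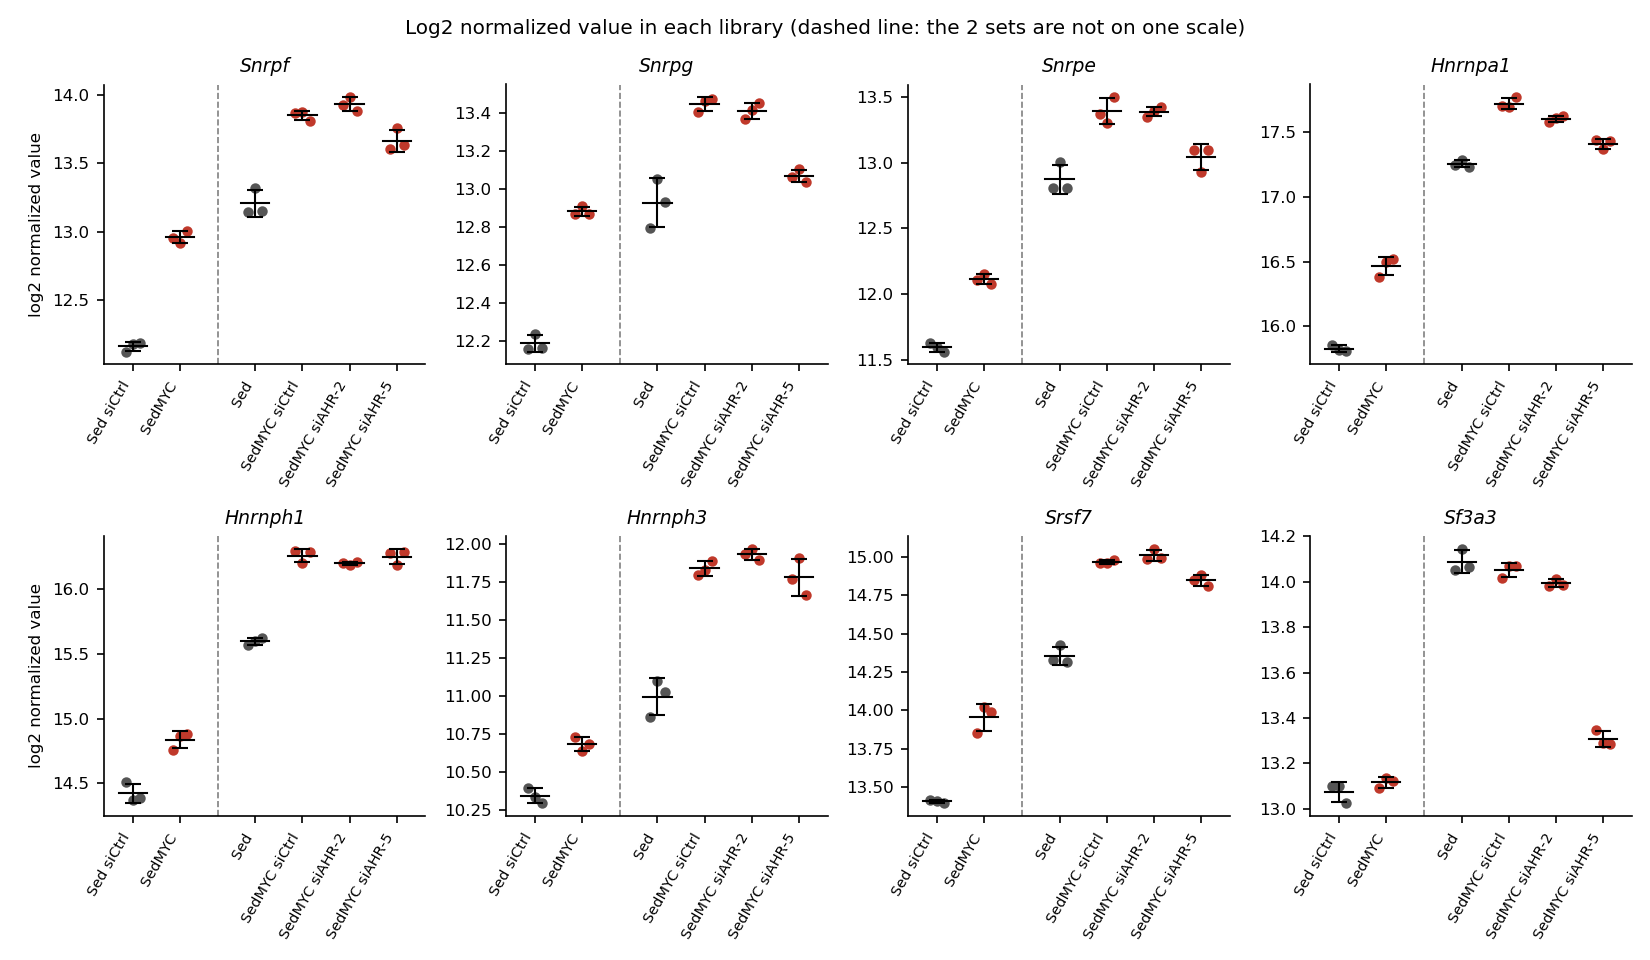
Log2 normalized value (vertical axis, not starting at 0) of 8 members in every library, with the mean and SD of each group of 3 in black; grey points are Sed and red points SedMYC libraries. The dashed line separates the small set from the large set, which are not on one scale. Snrpf lies between 12.12 and 12.18 in Sed siCtrl and between 12.92 and 13.00 in SedMYC, and Sf3a3 drops to between 13.29 and 13.35 in the siAHR-5 libraries.

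Promoter sequences are shown for 3 of the 4 Sm ring proteins that rose in both sets (Snrpf, Snrpg and Snrpe, the other being Snrpd1), for Srsf3, an SR protein whose window holds the E-box, and for Sf3a3, the member past the cutoffs with siAHR-5. The sequences are the 250 bases before the start site in the RefSeq annotation of build GRCr8, 5′ to 3′ on the strand of the gene. They lie at chr7:30024163-30024412 on the reverse strand for Snrpf, chr4:120369461-120369710 on the forward strand for Snrpg, chr13:47609252-47609501 on the reverse strand for Snrpe, chr20:7093335-7093584 on the forward strand for Srsf3 and chr5:142252157-142252406 on the forward strand for Sf3a3. The E-box CACGTG is the site known to be bound by MYC with its partner MAX. Its non-canonical forms searched were CACGCG as the first, CAAGTG as another and CACCTG as the last, and GCGTG is the core of the AHR response element. Capitals mark matches to these letters on either strand, so that a CACGC in capitals, for example, is GCGTG read on the other strand.
Snrpf: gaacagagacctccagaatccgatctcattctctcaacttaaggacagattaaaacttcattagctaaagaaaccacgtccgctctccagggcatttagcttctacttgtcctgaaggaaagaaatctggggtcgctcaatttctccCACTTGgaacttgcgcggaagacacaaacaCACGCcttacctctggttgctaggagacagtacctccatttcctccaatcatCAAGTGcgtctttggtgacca
Snrpg: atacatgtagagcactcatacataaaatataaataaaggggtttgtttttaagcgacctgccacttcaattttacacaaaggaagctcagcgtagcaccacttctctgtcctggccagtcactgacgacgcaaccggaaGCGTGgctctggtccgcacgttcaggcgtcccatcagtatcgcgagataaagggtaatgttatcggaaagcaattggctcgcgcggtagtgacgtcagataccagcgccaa
Snrpe: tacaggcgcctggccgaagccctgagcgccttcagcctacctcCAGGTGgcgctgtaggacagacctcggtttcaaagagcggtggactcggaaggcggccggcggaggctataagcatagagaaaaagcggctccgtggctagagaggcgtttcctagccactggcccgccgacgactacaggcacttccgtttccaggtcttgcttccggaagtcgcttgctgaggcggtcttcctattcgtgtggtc
Srsf3: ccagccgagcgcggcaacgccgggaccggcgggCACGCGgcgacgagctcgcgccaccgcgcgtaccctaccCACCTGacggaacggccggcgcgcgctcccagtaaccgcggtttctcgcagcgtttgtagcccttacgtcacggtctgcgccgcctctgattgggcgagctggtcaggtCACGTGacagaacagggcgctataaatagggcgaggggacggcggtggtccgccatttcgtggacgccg
Sf3a3: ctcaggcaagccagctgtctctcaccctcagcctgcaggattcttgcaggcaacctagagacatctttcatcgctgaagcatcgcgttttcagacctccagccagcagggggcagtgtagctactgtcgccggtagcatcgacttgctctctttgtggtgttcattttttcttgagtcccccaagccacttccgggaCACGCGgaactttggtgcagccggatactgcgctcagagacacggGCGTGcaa

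A window was at hand for 45 of the 46 members and for 9842 genes of the table, and the letters were counted on both strands in windows of 300 bases (250 before and 50 after the start site). CACGTG was found in 6 members, or 13.3%, against 9.06% of all genes with a window. These were Hnrnpa3, Hnrnpd, Hnrnpdl, Hnrnph2, Hnrnpm and Srsf3, none of which passed the cutoffs in any of the 4 comparisons. CACGCG was found in 15 members (33.3%, against 15.9%), CACCTG in 8 (17.8%, against 19.2%) and CAAGTG in 3 (6.67%, against 11.6%). GCGTG was found in 25 members (55.6%, against 47.7%), and every CACGCG contains it on the other strand, so these counts overlap. The printed Snrpf window holds CAAGTG on each strand and GCGTG but not CACGTG, and that of Sf3a3 holds CACGCG, and GCGTG on each strand. A match is a description of the letters in the window and not a site shown to be bound.

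Of the proteins specific to U1 and U2, Snrpa1 was the one that passed the test at an adjusted p below 0.05 in both sets with the values as deposited. Snrpa1, which encodes the U2 A′ protein, was at 12.53, 12.52 and 12.51 in Sed siCtrl and 12.77, 12.83 and 12.84 in SedMYC, and at 13.61, 13.72 and 13.59 in Sed and 14.10, 14.10 and 14.15 in SedMYC siCtrl. The groups did not overlap, and the log2 fold changes were 0.29 (SE 0.032, adjusted p = 5.96e-06) and 0.48 (SE 0.0414, adjusted p = 0.000139). Snrpb2, the U2 B″ protein, had 0.09 (SE 0.0448, adjusted p = 0.106) and 0.06 (SE 0.0652, adjusted p = 0.459). Snrpc, a U1 protein that helps to recognise the 5′ splice site, had 0.05 (SE 0.0321, adjusted p = 0.183) and 0.20 (SE 0.0746, adjusted p = 0.0575), and passed the test in both sets with quantile normalization (0.12 and 0.27) and in the large set with median centring (0.24). Of the 4 proteins, 1 was higher in the small set (background 37.3%) and 2 in the large set (31.6%) at an adjusted p below 0.05, and 0 were lower. With quantile normalization 3 were higher in each set, and with median centring 1 and 3. Snrpa, given after its values had been seen, had 0.05 (SE 0.0321, adjusted p = 0.163) in the small set. In the large set it had 0.18 (SE 0.059, adjusted p = 0.0343), without overlap.

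Of the 9 SF3A and SF3B subunits, none passed the cutoffs in either set with the values as deposited. At an adjusted p below 0.05, 3 were higher and 2 lower in the small set, where 37.3% and 39.0% of all genes were, and 4 were higher and 2 lower in the large set, against 31.6% and 33.1%. With quantile normalization the counts were 7 and 1, and 4 and 0, and with median centring 2 and 3 in the small set. Sf3b2, a subunit that contacts the pre-mRNA near the branch site, was at 15.86, 15.87 and 15.86 in Sed siCtrl and 15.28, 15.30 and 15.31 in SedMYC, the deepest fall of any member in the small set, with -0.57 (SE 0.0254, adjusted p = 2.86e-09). Median centring took it past the fold cutoff, at -0.61. In the large set it fell by 0.25 (SE 0.0381, adjusted p = 0.00156), a call that was lost with quantile normalization (-0.094, adjusted p = 0.0634).

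Sf3b1, the largest subunit and the one that is recurrently mutated in myeloid neoplasms, was among the members whose effect differed between the sets. It was at 15.32, 15.28 and 15.24 in Sed siCtrl and at 15.20, 15.24 and 15.19 in SedMYC, which overlapped, and had a log2 fold change of -0.07 (SE 0.0297, adjusted p = 0.0564), which turned to 0.14 with quantile normalization (adjusted p = 0.000736) and was -0.11 with median centring (adjusted p = 0.00418). In the large set it was at 16.41, 16.30 and 16.40 in Sed and at 16.76, 16.70 and 16.75 in SedMYC siCtrl, without overlap and with 0.36 (SE 0.0398, adjusted p = 0.000371), or 0.57 with quantile normalization. The difference of the 2 effects was 0.43 (SE 0.0537, adjusted p = 7.61e-06). Sf3b6, the small subunit that lies next to the branch point adenosine, rose by 0.26 and 0.31, and Sf3b3 by 0.21 and 0.28. Sf3a1 fell in both sets, by 0.22 and 0.20, but with quantile normalization it was at -0.0006 (adjusted p = 0.986) and -0.071 (adjusted p = 0.117), and passed in neither. Sf3a2 had -0.02 and 0.01, and Sf3a3 0.04 and -0.04, none of which passed the test with the values as deposited, while with quantile normalization Sf3a2 (0.14, adjusted p = 0.00247) and Sf3a3 (0.14, adjusted p = 0.00186) were higher in the small set.

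Of the 10 SR proteins, 7 were higher and 0 lower with MYC in the small set (background 37.3% and 39.0%), and 9 were higher and 1 lower in the large set (31.6% and 33.1%), at an adjusted p below 0.05. With median centring the small set had 6 higher and 2 lower. Srsf7, an SR protein with a zinc knuckle that also acts in mRNA export, was at 14.33, 14.42 and 14.31 in Sed and 14.96, 14.96 and 14.98 in SedMYC siCtrl, without overlap. Its log2 fold change was 0.61 (SE 0.0359, adjusted p = 2.61e-05), past the cutoffs. In the small set Srsf7 was at 13.42, 13.41 and 13.39 and 13.85, 14.02 and 13.99, also without overlap, and its 0.55 (SE 0.0415, adjusted p = 2.53e-07) was short of the fold cutoff, which it passed without SedMYC replicate 1, at 0.60. Srsf11 rose by 0.55 and 0.32. Srsf2, Srsf5 and Srsf6, given after their values had been seen, rose by 0.51, 0.54 and 0.54 in the small set and by 0.41, 0.30 and 0.13 in the large set. The effects on Srsf6 differed by -0.40 (SE 0.0833, adjusted p = 0.000827).

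Srsf9 was the SR protein that fell in the large set. It was at 13.75, 13.93 and 13.88 in Sed and at 13.54, 13.49 and 13.53 in SedMYC siCtrl, with -0.34 (SE 0.0509, adjusted p = 0.00164). Within the small set it had -0.08 (SE 0.0364, adjusted p = 0.0605), and the groups overlapped, but with median centring it was lower there too (-0.12, adjusted p = 0.00688). Srsf4 had -0.02 (SE 0.0287, adjusted p = 0.63) and 0.13 (SE 0.0348, adjusted p = 0.0164), and with quantile normalization 0.13 (adjusted p = 0.00129) and 0.23 (adjusted p = 0.00153). The median of the SR proteins was 0.34 in the small set and 0.26 in the large set and stayed above 0 under each scaling.

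The test at an adjusted p below 0.05 took 5 of the 17 hnRNPs as higher and 9 as lower in the small set (37.3% and 39.0% of all genes), and 7 as higher and 5 as lower in the large set (31.6% and 33.1%). With quantile normalization these became 8 and 6, and 11 and 1. Their median was -0.08 in the small set and 0.04 in the large set, and 0.05 and 0.24 with quantile normalization. Hnrnpa1, which acts against SR proteins at many exons, was at 15.86, 15.82 and 15.81 in Sed siCtrl and 16.38, 16.50 and 16.52 in SedMYC, a rise of 0.64 (SE 0.0368, adjusted p = 2.48e-08) that passed the cutoffs. In the large set it was at 17.25, 17.29 and 17.23 and 17.70, 17.69 and 17.77, and its 0.46 (SE 0.0374, adjusted p = 9.79e-05) was below the fold cutoff. The groups did not overlap in either set, and the effects differed by -0.17 (SE 0.0584, adjusted p = 0.0211), a difference that did not pass the test with quantile normalization (-0.038, adjusted p = 0.619) or median centring (-0.088, adjusted p = 0.23).

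Hnrnph3 and Hnrnph1, which belong to the group that binds runs of G, passed the cutoffs in the large set. Hnrnph3 was at 10.86, 11.10 and 11.03 in Sed and 11.80, 11.83 and 11.89 in SedMYC siCtrl. Its 0.85 (SE 0.0692, adjusted p = 0.000106) was the largest change of any member in a MYC comparison with the values as deposited. With quantile normalization it was 0.865, below the 0.875 of Snrpf in the small set. In the small set Hnrnph3 was at 10.40, 10.34 and 10.30 and 10.73, 10.64 and 10.68, a rise of 0.34 (SE 0.0484, adjusted p = 5.75e-05). Neither set showed overlap for Hnrnph3, and the effects differed by 0.51 (SE 0.0853, adjusted p = 0.000144). Hnrnph1 was at 15.57, 15.60 and 15.62 in Sed and 16.29, 16.20 and 16.29 in SedMYC siCtrl, with 0.66 (SE 0.0361, adjusted p = 1.89e-05). Within the small set it was at 14.51, 14.37 and 14.38 and 14.76, 14.87 and 14.88, with 0.41 (SE 0.0435, adjusted p = 4.54e-06). Their close relative Hnrnph2 went the other way, with -0.49 (SE 0.0328, adjusted p = 9.15e-08) and -0.15 (SE 0.0377, adjusted p = 0.0157), but the call in the large set was lost with quantile normalization (-0.062, adjusted p = 0.208) and with median centring (-0.10, adjusted p = 0.0647).

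The changes of the hnRNP U family depended on the scaling. Hnrnpul2, which acts in the response to DNA breaks, was at 15.30, 15.29 and 15.31 in Sed siCtrl and 14.82, 14.80 and 14.83 in SedMYC, and at 16.40, 16.24 and 16.38 in Sed and 15.99, 15.95 and 15.99 in SedMYC siCtrl, without overlap. Its log2 fold changes were -0.48 (SE 0.0257, adjusted p = 1.24e-08) and -0.36 (SE 0.0491, adjusted p = 0.000976). The latter was the lowest of the members in the large set with the values as deposited. With quantile normalization Srsf9 was the lowest there, at -0.26. Hnrnpul1 fell in the small set with -0.33 (SE 0.0294, adjusted p = 1.07e-06) and had 0.07 (SE 0.0517, adjusted p = 0.26) in the large set. Hnrnpu, which is also a nuclear scaffold protein, fell by 0.12 in the small set and had 0.04 (SE 0.0491, adjusted p = 0.456) in the large set. With quantile normalization Hnrnpul1 (0.24, adjusted p = 0.00502) and Hnrnpu (0.26, adjusted p = 0.00201) were higher in the large set, and Hnrnpul2 was at -0.25 and -0.18 in the 2 sets, Hnrnpul1 at -0.12 and Hnrnpu at -0.087 in the small set, all still past the test.

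The 2 sets share no library. At an adjusted p below 0.05, 19 members (41.3%) were higher in both sets, 8 (17.4%) were lower in both and 1 (2.17%), Hnrnpa3, was lower in the small set and higher in the large set. Of all genes, 24.0% were higher in both, 25.3% lower in both and 6.37% opposite. The 19 were Snrpd1, Snrpe, Snrpf and Snrpg of the Sm ring, Snrpa1, Sf3b3 and Sf3b6 of the U2 particle, the SR proteins Srsf1, Srsf2, Srsf3, Srsf5, Srsf6, Srsf7 and Srsf11, and Hnrnpa1, Hnrnph1, Hnrnph3, Hnrnpl and Hnrnpm. The 8 were Snrpb, Sf3a1, Sf3b2, Hnrnpa2b1, Hnrnpf, Hnrnph2, Hnrnpr and Hnrnpul2. With quantile normalization 27 members (58.7%) were higher in both sets and 1 (2.17%), Hnrnpul2, was lower in both. A further 3 (6.52%), Hnrnpd, Hnrnpu and Hnrnpul1, were lower in the small set and higher in the large set. The shares of all genes were then 28.5% higher in both, 22.0% lower in both and 6.85% opposite. With median centring 18 (39.1%) were higher in both and 7 (15.2%) lower in both, and 3 (6.52%), Hnrnpa3, Sf3b1 and Srsf10, were opposite. The shares of all genes were 25.3%, 25.3% and 10.9% with that scaling. Of the 8, therefore, Hnrnpul2 alone was lower in both sets under each scaling. Quantile normalization turned the sign of Snrpb and Hnrnpa2b1 in both sets, and that of Hnrnpf in the small set. For Hnrnpa3, which is not among the 8, it turned the sign in the small set. Of the 19, quantile normalization made the rises of Sf3b3, Srsf1, Srsf3 and Hnrnpm in both sets, of Hnrnph1 in the small set and of Srsf5, Srsf6 and Hnrnpl in the large set over 1.5 times as large on the log2 scale, and with median centring Hnrnpm (0.039, adjusted p = 0.239) and Srsf3 (0.089, adjusted p = 0.0983) did not pass in the small set. Tested against each other in one fit, the MYC effects of the 2 sets differed past the cutoffs for 0 members (background 16.5%), with 16 higher and 11 lower at an unadjusted p below 0.05 (limma, background 27.0% and 32.7%). At an adjusted p below 0.05, 16 members had the higher effect in the large set and 8 the lower (24.8% and 30.1%), and with median centring 22 and 4. The lower count was 5 without Sed siCtrl replicate 3, SedMYC replicate 2 or SedMYC replicate 3.

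**Figure D3:**
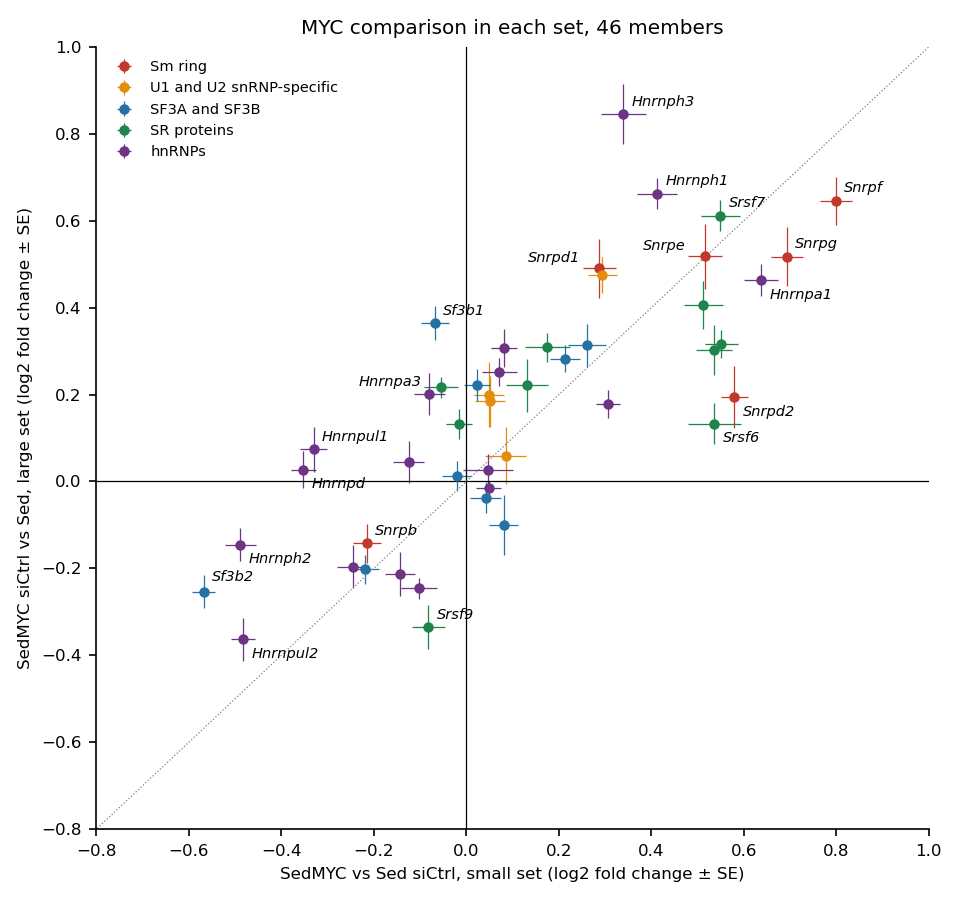
Log2 fold change with MYC in the small set (horizontal axis) against that in the large set (vertical axis) for the 46 members, with standard errors, coloured by role; the dotted line marks equal effects. Snrpf lies at 0.80 and 0.65, Hnrnph3 lies well above the line at 0.34 and 0.85, and Snrpd2 and Srsf6 lie well below it.

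The siRNAs were each compared with SedMYC siCtrl, so the 2 comparisons share their control libraries with each other and with the MYC comparison in the large set. siAHR-2 moved 0 members past the cutoffs (background 0.47%). At an unadjusted p below 0.05 (limma), 6 members were higher and 14 lower (background 19.9% and 20.5%), and at an adjusted p below 0.05, 3 were higher and 11 lower (background 13.7% and 15.5%). Those 3 and 11 became 8 and 3 with quantile normalization and 1 and 16 with median centring, and without siAHR-2 replicates 1, 2 or 3 the lower count was 7, 5 or 6. The higher count was 2 without siAHR-2 replicate 1 or siCtrl replicate 1, and 1 without any other single library. The median of the members was -0.03 and that of all genes 0.00, but the members' median was 0.025 with quantile normalization and -0.048 without siCtrl replicate 2. With siAHR-5, 0 members were higher and 1 lower past the cutoffs (background 2.32%, made up of 1.47% higher and 0.849% lower). At an adjusted p below 0.05, 2 were higher and 26 lower with siAHR-5 (background 21.1% and 18.1%), or 6 and 19 with quantile normalization. The median of the members was -0.13 and that of all genes 0.01. Past the cutoffs, quantile normalization also moved all genes with siAHR-5, from 194 higher and 112 lower to 127 and 126.

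Sf3a3, a subunit of the SF3A complex that joins the U2 particle, was the member past the cutoffs with siAHR-5. It was at 14.02, 14.07 and 14.07 in SedMYC siCtrl, at 13.98, 14.01 and 13.99 with siAHR-2 and at 13.35, 13.29 and 13.29 with siAHR-5. The siAHR-5 libraries lay below all others of the set. The log2 fold change was -0.75 (SE 0.0269, adjusted p = 0.00017) with siAHR-5, which left 0.597 of the siCtrl level read off the log scale. It was -0.06 (SE 0.0205, adjusted p = 0.096) with siAHR-2, and the siRNAs compared directly differed by -0.69 (SE 0.0225, adjusted p = 6.25e-05) (siAHR-5 minus siAHR-2). In Sed, without MYC, Sf3a3 was at 14.05, 14.15 and 14.07, which overlapped SedMYC siCtrl. Sf3a1, the largest SF3A subunit, was at 14.58, 14.60 and 14.61 in SedMYC siCtrl, 14.44, 14.51 and 14.52 with siAHR-2 and 14.16, 14.09 and 14.10 with siAHR-5. Its changes were -0.10 (SE 0.024, adjusted p = 0.0264) and -0.48 (SE 0.0228, adjusted p = 0.000258), the first of which was lost with quantile normalization (-0.051, adjusted p = 0.212). The third subunit, Sf3a2, had 0.12 (SE 0.0293, adjusted p = 0.0354) and -0.06 (SE 0.0472, adjusted p = 0.413).

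Of the 6 Sm ring proteins, 5 fell with siAHR-5 at an adjusted p below 0.05 (background 18.1%) and 0 with siAHR-2 (15.5%), and the medians were -0.34 and 0.00. Snrpd1 was at 13.85, 13.87 and 13.96 in SedMYC siCtrl, 13.88, 13.91 and 13.91 with siAHR-2 and 13.54, 13.48 and 13.51 with siAHR-5. The siAHR-5 libraries of Snrpd1 did not overlap the others, with -0.39 (SE 0.0352, adjusted p = 0.000927) against siCtrl and -0.39 (SE 0.0195, adjusted p = 0.000142) against siAHR-2. Snrpg was at 13.37, 13.42 and 13.45 with siAHR-2 and 13.06, 13.10 and 13.04 with siAHR-5, and fell with siAHR-5 by 0.38 (SE 0.0287, adjusted p = 0.000619). Snrpf was at 13.93, 13.98 and 13.88 with siAHR-2 and 13.61, 13.76 and 13.63 with siAHR-5, with 0.08 (SE 0.0325, adjusted p = 0.129) and -0.19 (SE 0.0457, adjusted p = 0.0244). Snrpb had -0.13 (SE 0.0437, adjusted p = 0.0679) with siAHR-5.

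**Figure D4:**
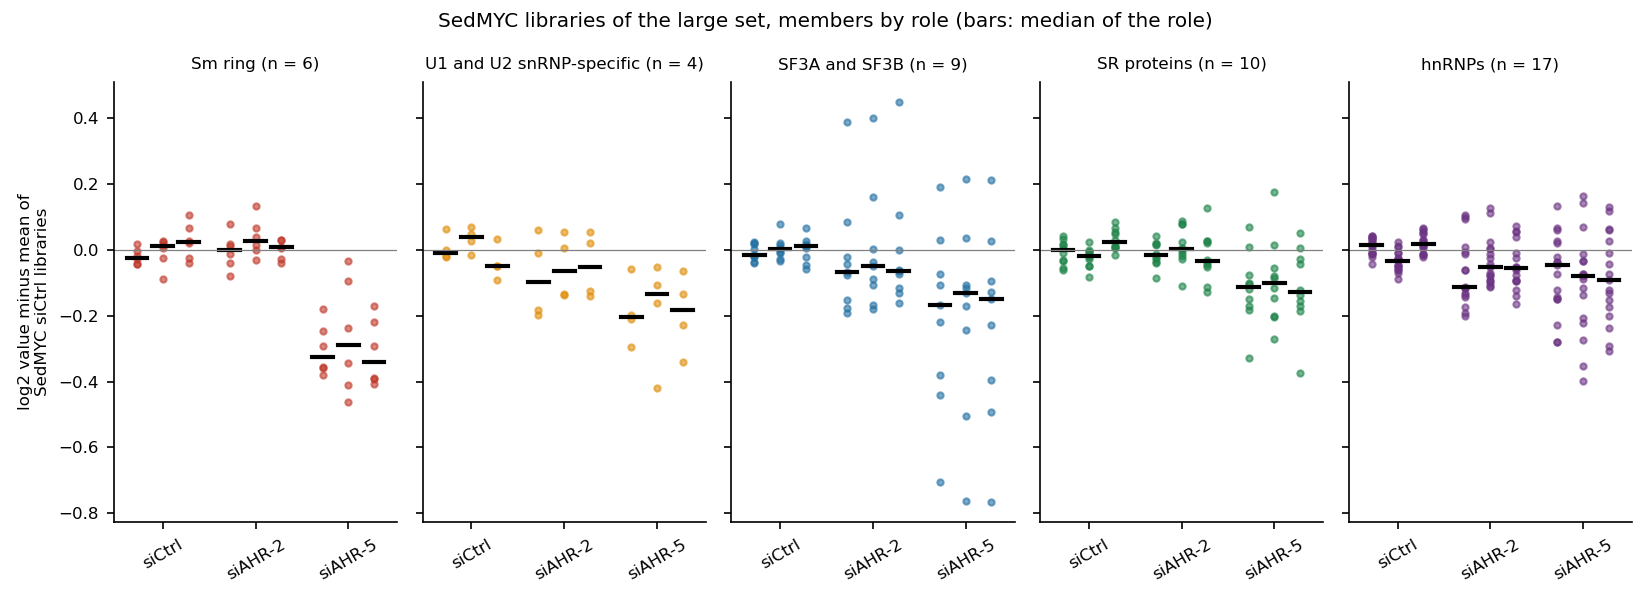
Log2 value of each member in the 9 SedMYC libraries of the large set, minus its mean over the siCtrl libraries (vertical axis), with 1 panel a role; each point is a member in a library, and black bars are medians of the role in a library. The Sm ring bars lie near 0 for siCtrl and siAHR-2 and well below it for the 3 siAHR-5 libraries, and the lowest points of the SF3A and SF3B panel are Sf3a3.

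With siAHR-5, 3 of the 4 U1 and U2 proteins were lower at an adjusted p below 0.05 (18.1% of all genes), as were 6 of the 9 SF3A and SF3B subunits, 5 of the 10 SR proteins and 7 of the 17 hnRNPs. Their medians were -0.17, -0.15, -0.12 and -0.06. With quantile normalization 3, 4, 4 and 3 were lower and 0, 1, 1 and 4 higher, so the hnRNPs no longer had more lower than higher. The medians were then -0.15, -0.090, -0.035 and -0.019. Snrpb2 was at 13.02, 12.99 and 12.87 in SedMYC siCtrl, 12.76, 12.83 and 12.83 with siAHR-2 and 12.66, 12.54 and 12.62 with siAHR-5, with -0.15 (SE 0.0463, adjusted p = 0.0609) and -0.35 (SE 0.053, adjusted p = 0.00465). The siAHR-5 libraries of Snrpb2 were the lowest. The members higher with siAHR-5 with the values as deposited were Sf3b6 and Hnrnpul2. Hnrnpul2 was at 15.99, 15.95 and 15.99 in SedMYC siCtrl and 16.11, 16.12 and 16.11 with siAHR-5, with 0.14 (SE 0.018, adjusted p = 0.00303), or 0.24 with quantile normalization and 0.076 with median centring. Srsf4 had 0.10 (SE 0.0424, adjusted p = 0.125) with siAHR-5.

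Sf3b6 rose with both siRNAs. It was at 12.67, 12.66 and 12.67 in SedMYC siCtrl, 13.06, 13.07 and 13.12 with siAHR-2 and 12.86, 12.88 and 12.88 with siAHR-5, and none of the 3 groups overlapped. The changes were 0.41 (SE 0.0211, adjusted p = 0.000449) and 0.21 (SE 0.0178, adjusted p = 0.000782), and the siRNAs differed by -0.21 (SE 0.0223, adjusted p = 0.00141). With siAHR-2, the change of Sf3b6 was the largest of any member. The next highest members were Sf3a2, above, and Hnrnpul1, with 0.09 (SE 0.0222, adjusted p = 0.0281). The lowest with siAHR-2 were Sf3b3, with -0.18 (SE 0.017, adjusted p = 0.00187), Sf3b1, with -0.15 (SE 0.0239, adjusted p = 0.00765), and Hnrnpu, with -0.15 (SE 0.0428, adjusted p = 0.0482). With quantile normalization Sf3b3 was at -0.11 (adjusted p = 0.00763), Sf3b1 at -0.063 (adjusted p = 0.117) and Hnrnpu at -0.019 (adjusted p = 0.66), and the lowest members were Snrpb2 (-0.14, adjusted p = 0.0441) and Snrpa1 (-0.12, adjusted p = 0.0145). Hnrnpul1 was at 0.19 with quantile normalization, and with median centring neither Hnrnpul1 (0.064, adjusted p = 0.0702) nor Sf3a2 (0.085, adjusted p = 0.0519) passed the test. Among the members described with each siRNA, calls were also gained for Snrpb2 (-0.18, adjusted p = 0.011) and Sf3a3 (-0.088, adjusted p = 0.0253) with siAHR-2 under centring, for Snrpf with siAHR-2 under quantile normalization (0.11, adjusted p = 0.0302), for Snrpb (-0.19, adjusted p = 0.00389) and Sf3a2 (-0.12, adjusted p = 0.0478) with siAHR-5 under centring, and for Srsf4 with siAHR-5 under quantile normalization (0.14, adjusted p = 0.0424).

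Compared directly, the siRNAs differed past the cutoffs for Sf3a3 alone among the members (background 2.18%, made up of 1.33% higher and 0.849% lower). At an adjusted p below 0.05, 3 members were higher and 24 lower with siAHR-5 than with siAHR-2 (background 22.1% and 17.0%). The higher count was 6 without siAHR-5 replicate 2, 6 with quantile normalization (28 lower), 5 with only genes at a mean of 5 or more (29 lower) and 1 with median centring (30 lower). This comparison does not use the siCtrl libraries. By role, with 17.0% of all genes lower, 5 of 6 Sm ring proteins, 3 of 4 U1 and U2 proteins, 7 of 9 SF3A and SF3B subunits, 5 of 10 SR proteins and 4 of 17 hnRNPs were lower with siAHR-5, with medians of -0.34, -0.20, -0.17, -0.10 and -0.02. The median over all genes was 0.01. Ahr itself did not pass the test between the siRNAs, with -0.11 (SE 0.057, adjusted p = 0.211).

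Other genes of the splicing machinery, on lists that do not overlap the members, are given by their counts. Of 53 other spliceosome proteins measured, 3 were higher and 2 lower past the cutoffs with MYC in the small set (background 12.5% and 14.3%) and 5 were higher and 0 lower in the large set (10.8% and 14.7%), with medians of 0.14 and 0.22. Cwc27, a cyclophilin of the activated spliceosome, rose in both, by 0.79 and 1.30, as did Prpf38b, by 0.68 and 0.95. U2af1, the subunit that reads the 3′ splice site, fell by 1.09 in the small set and rose by 0.55 (SE 0.05, adjusted p = 0.000166) in the large set. Usp39, of the U4/U6.U5 particle, fell by 0.78 and 0.39. With siAHR-5, 0 of the 53 were higher and 37 lower at an adjusted p below 0.05 (background 21.1% and 18.1%), with a median of -0.18, and 1, Bud31, was lower past the cutoffs, at -1.13. With siAHR-2, 3 were higher and 21 lower (13.7% and 15.5%), with a median of -0.08.

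A list of 15 genes for the assembly of small nuclear ribonucleoproteins covered the SMN complex, the PRMT5 methylosome and related factors. Of these 15, 5 were higher and 1 lower past the cutoffs in the small set (12.5% and 14.3% of all genes). In the large set 3 were higher and 1 lower past them (10.8% and 14.7%). The test at an adjusted p below 0.05 took 11 of the 15 as higher and 2 as lower in the small set (37.3% and 39.0% of all genes) and 10 and 3 in the large set (31.6% and 33.1%), and their median log2 fold changes were 0.40 and 0.39. Gemin2, which holds the Sm proteins before they close the ring, was at 10.05, 10.09 and 10.08 in Sed siCtrl and 10.98, 10.94 and 10.89 in SedMYC, with 0.86 (SE 0.0459, adjusted p = 1.25e-08), and rose by 0.73 in the large set. Wdr77, the partner of PRMT5 in the methylation of Sm proteins, rose by 1.07 and 0.94, and Smn1 by 0.59 and 0.75. Coprs, which binds PRMT5, fell by 0.75 and 0.61. With the siRNAs, 0 of the 15 passed the cutoffs (background 0.47% with siAHR-2 and 2.32% with siAHR-5), and the medians were -0.05 with siAHR-2 and -0.19 with siAHR-5.

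Of 10 SR protein kinases and transport factors, 4 were higher and 0 lower past the cutoffs in the small set (background 12.5% and 14.3%), and 1 was higher and 0 lower in the large set (10.8% and 14.7%). Clk2 and Clk1, kinases that phosphorylate SR proteins in the nucleus, rose by 0.72 and 0.67 in the small set and by 0.47 and 0.52 in the large set. Srpk1, the cytoplasmic SR kinase, rose by 0.56 and 0.63. Of 41 other splicing regulators and hnRNP-like proteins, 6 were higher and 4 lower in the small set and 5 were higher and 3 lower in the large set, to be read against the same shares. Rbm4 rose by 1.18 and 1.30, Mbnl2 by 1.06 and 0.57, and Ptbp2 by 0.45 and 0.85. Nova1 fell by 2.18 and 1.39, Rbmx by 1.08 and 0.74, and Raly, a close relative of the hnRNP C proteins, by 0.65 and 0.96. No gene of these last lists passed the cutoffs with either siRNA, where 0.47% and 2.32% of all genes did.

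**Figure D5:**
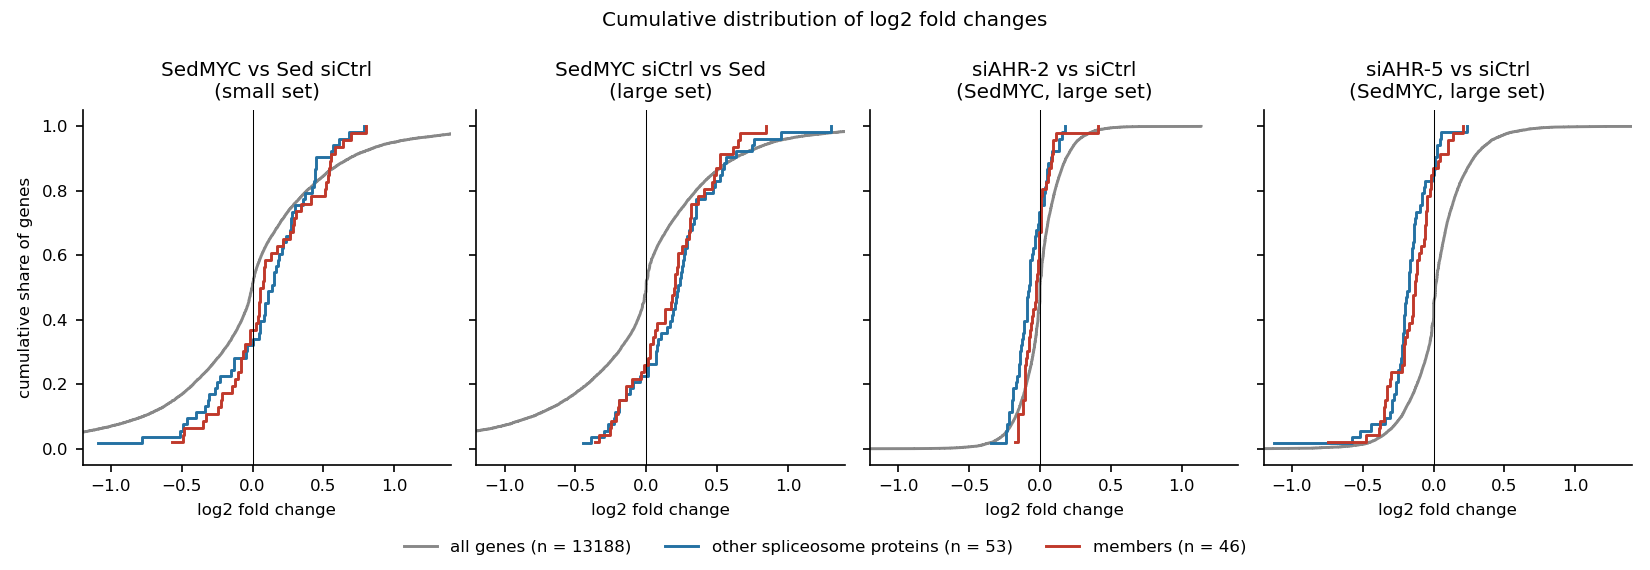
Cumulative share of genes (vertical axis) by log2 fold change (horizontal axis, drawn from -1.2 to 1.4, with a few of all genes outside) for all 13188 genes in grey, the 53 other spliceosome proteins in blue and the 46 members in red, in 4 comparisons. The red and blue lines lie to the right of the grey line at their medians in both MYC panels and to its left for siAHR-5, where the medians are -0.13 for the members, -0.18 for the other spliceosome proteins and 0.01 for all genes.

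Some members share sequence with other loci. In the RefSeq gene table of GRCr8, used here for names and neighbours, 24 of the 46 members had at least 1 pseudogene named after them, with 50 for Hnrnpa1, 10 each for Snrpc and Srsf3, 8 for Snrpg and 7 each for Srsf7 and Hnrnpk, and reads from such copies could have been counted for the parent gene or lost. Snrpf had 2 and Sf3a3 had 0. The library kit does not mark the strand, and 14 members overlap another coding gene, among them Hnrnpa1 (Cbx5), Hnrnph3 (Rufy2), Sf3b2 (Gal3st3), Sf3b6 (Fkbp1b) and Snrpf (Ccdc38), so reads in the shared stretches cannot be assigned to either gene. The members lay on 17 chromosomes.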

How the data were processed

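RNA-seq was measured in 18 libraries (6 groups of 3) of Rat1 myc-/- fibroblasts. Poly-A RNA was prepared with a kit that does not mark the strand. Before deposit, the authors filtered reads by quality (NGS-QC-Toolkit), mapped the rest to the rat build rn6 (HISAT2 2.1.0), dropped genes whose reads totalled under 10 and normalized by DESeq2. They deposited 1 table of log2 normalized values for 13188 genes, with replicates apart. It is labelled as log CPM, but off the log scale the libraries do not sum to the total that CPM has. The counter, annotation and transformation are not given in the sources used here, so depth and its precision are unknown.

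Groups came from the sample labels and columns were matched by the names given there; no column was left without a sample. Each comparison was fitted on its own groups with limma 3.58.1 in R 4.3.3 (lmFit, eBayes with a mean-variance trend), with Benjamini-Hochberg adjustment over all 13188 genes. The authors tested with DESeq2, which needs counts, so limma was used here. A gene was called at a fold of at least 1.5 and an adjusted p of at most 0.01, the cutoffs of the study, and counts at an FDR of 0.05 are given beside them. The difference of the MYC effects was a contrast in a fit of 4 groups.

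Named members were those past the cutoffs, the highest and lowest of each role in each MYC comparison and the 3 highest and 3 lowest with each siRNA (25 of 46, the other 21 being given by counts unless said otherwise); from the other lists, up to 2 rising and 2 falling genes per MYC comparison. The members and lists were chosen with earlier results of these data known. RefSeq tables of GRCr8 gave names, neighbours and promoter windows, and figures were drawn with matplotlib 3.10.9. Alternatives were no trend, quantile normalization, median centring, a filter at a mean of 5 (log2), 1 added to each value off the log scale, a replicate block, all 18 libraries in one fit and leaving out each replicate.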

Additional observations from a re-analysis of the deposited data

Results flagged for a closer look

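Hnrnpa3 moved in opposite directions with MYC in the 2 sets. It was at 15.98, 15.89 and 15.91 in Sed siCtrl and 15.80, 15.87 and 15.88 in SedMYC, and at 16.91, 16.93 and 16.88 in Sed and 17.13, 17.02 and 17.17 in SedMYC siCtrl, and neither pair of groups overlapped. The effects were -0.08 (SE 0.0336, adjusted p = 0.0484) and 0.20 (SE 0.0473, adjusted p = 0.0106), and their difference was 0.28 (SE 0.0616, adjusted p = 0.00128) in the fit of 12 libraries, large set minus small set. With quantile normalization the effect in the small set changed sign. The sets also differ in the transfection label of each MYC group, and the part of that label was not tested.

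Sf3a3 differed between the 2 AHR siRNAs by -0.69 (siAHR-5 minus siAHR-2, adjusted p = 6.25e-05), which is past the cutoffs, and it was lower in 3 of 3 siAHR-5 libraries than in any siAHR-2 library. It stayed past the cutoffs under every alternative run, leaving out each single library included.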

How the results depend on the processing

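Counts of members past the cutoffs kept to within 1.5 times the main count under most alternatives. Without a fold cutoff, at an FDR of 0.05, they became 21 higher and 12 lower with MYC in the small set, 26 and 9 in the large set, 3 and 11 with siAHR-2, 2 and 26 with siAHR-5, 24 for the difference of the MYC effects and 27 between the siRNAs. In the small set, quantile normalization gave 10 higher, against 1799 of all 13188 genes. Median centring gave 1 lower there (Sf3b2), against 2046 of all genes. For the difference of the MYC effects, centring gave 1 member (Hnrnph3, higher), against 1148 of all genes higher and 1036 lower. The members' median log2 fold change was 0.17 with quantile normalization and 0.019 with centring in the small set, 0.31 and 0.24 in the large set (and 0.20 with the filter at a mean of 5), 0.025 and -0.056 with siAHR-2, and -0.073 and -0.19 with siAHR-5. Quantile normalization turned Snrpb to 0.0212 in the small set and 0.0558 in the large set, and Hnrnpa1 to 0.0185 with siAHR-2. It also turned Hnrnpl, counted as lower with siAHR-5, from -0.12 to 0.028 there. The other members whose sign it turned with MYC are given above. The cause was not tested. Leaving out single libraries gave 3 to 5 members higher in the small set (5 without SedMYC replicate 1), medians of 0.16 to 0.23 in the large set and of -0.048 to -0.020 with siAHR-2. The replicate block gave the same counts past the cutoffs (3, 4, 0 and 1 in the 4 comparisons with a control) and, at an FDR of 0.05, moved those with siAHR-2 to 1 higher and 7 lower. With siAHR-2 the block called 0 of all 13188 genes, against 62 without it, so its 0 members say nothing about stability. Same-numbered replicates correlated between -0.26 and 0.24 in their deviations, and some but not all correlated best with their own number. With 3 libraries a group, these correlations cannot settle whether same-numbered libraries belong together, and the main fits did not pair them. No depth is known.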
